A study of Rattus norvegicus with 6 samples.

Results

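Iron and haem handling genes were read out in endothelial cells from cirrhotic and control rat livers as the Affymetrix rat 230A probe sets whose only annotated symbol was Tfrc, Tf, Fth1, Ftl1, Cp, Hmox1, Lcn2, Aco1, Ireb2 or Hbb. This rule found 10 of 15866 probe sets, with 3 for Cp, 2 for Tfrc and 1 each for Hmox1, Lcn2, Aco1, Ireb2 and Hbb, so 7 of the 10 genes were measured. Tf, Fth1 and Ftl1 shared their probe sets with other symbols, and values of those probe sets are given only among the other observations at the end. All 10 probe sets were bright enough to be tested, and no signal of theirs was at or under the bacterial control probe sets, which have no counterpart in rat RNA and read at most 40.3.

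Liver endothelial cells of adult male Wistar rats put through an induction of cirrhosis were compared with those of control Wistar rats, with 3 arrays per group. Cells were freed with collagenase, centrifuged and captured on antibody-coated magnetic beads. The agent that caused cirrhosis, the antibody's target, the age and sex of the controls and the number of rats behind an array are not stated in the labels, so p-values measure only the spread between these arrays. The arrays hold bulk RNA, in which fewer cells of a type and less RNA per cell cannot be told apart. Cirrhotic array 3 stood apart from the other cirrhotic arrays, with more hepatocyte and less neutrophil and cholangiocyte marker signal, so the main results are also given without it.

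Iron reaches most cells on transferrin, the product of Tf, which binds the transferrin receptor Tfrc and is taken up with it, and is stored inside ferritin, built from Fth1 and Ftl1 chains. The iron regulatory proteins, products of Aco1 and Ireb2, bind RNA hairpins called iron-responsive elements when iron is scarce, which stabilises Tfrc mRNA and blocks ferritin translation. Haem, the iron-containing pigment bound by globins such as Hbb, is broken down by haem oxygenase Hmox1, and ceruloplasmin Cp oxidises iron leaving cells so that transferrin can load it. In the liver, hepatocytes make transferrin and ceruloplasmin for the blood, Kupffer cells recycle the haem of old red cells, and sinusoidal endothelium secretes the BMP ligands that set hepatocyte hepcidin, the hormone that holds iron back.

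Probe sets of Tfrc, Cp, Lcn2 and Hbb rose in cirrhotic cells, that of Hmox1 fell, and those of the iron sensors Aco1 and Ireb2 did not pass the test. By limma's moderated test, adjusted by Benjamini-Hochberg over all 9519 probe sets tested, 7 of the 10 rose and 1 fell at an adjusted p under 0.05. Of all probe sets tested, 25.4% were called, 12.3% higher and 13.2% lower in cirrhotic cells. The median difference was 1.53 on the log2(signal + 16) scale over the 10 probe sets and -0.02 over all tested. Groups stood apart in 8 of the 10, 7 higher and 1 lower in cirrhotic cells, and in 44.9% of all tested (20.8% higher, 24.1% lower). The genes were chosen with earlier results of these data known, so these shares describe them and do not set them apart from other genes.

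**Figure D1:**
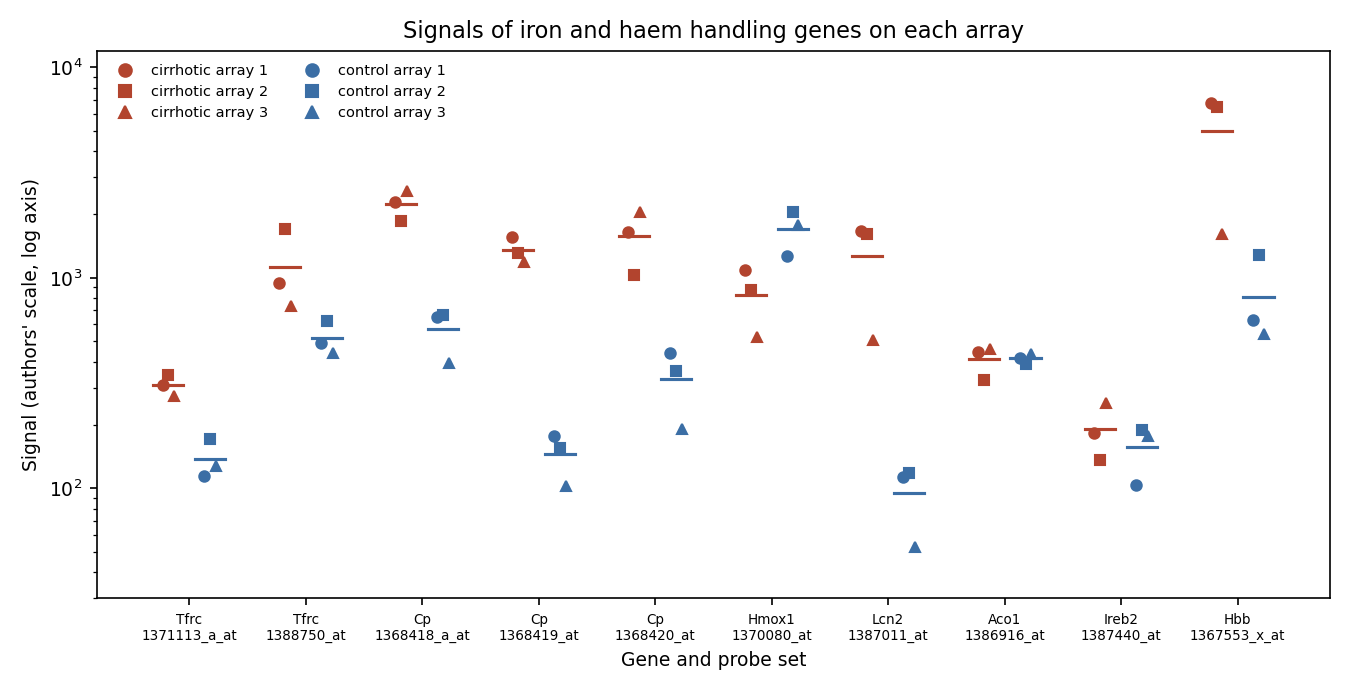
Signal of each probe set (authors' scale, log axis) on 3 cirrhotic (red, left) and 3 control arrays (blue, right), with bars at group means. The groups are apart for both Tfrc probe sets, all 3 Cp probe sets, Hmox1, Lcn2 and Hbb, and overlap for Aco1 and Ireb2; heights of different probe sets are not comparable.

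Tfrc, the receptor for iron-loaded transferrin, was about 2-fold higher in cirrhotic cells on both of its probe sets. On 1371113_a_at, whose suffix marks probes shared by several transcripts of a gene, the signals were 308.6, 344.2 and 274.9 on cirrhotic arrays 1 to 3, against 114.7, 171.6 and 127.5 on control arrays 1 to 3. Every cirrhotic array was above every control array. The difference was 1.09 on the log2(signal + 16) scale (SE 0.18, n = 3 per group, adjusted p = 0.00471 in limma's moderated test), and it passed the test without any 1 array (adjusted p from 0.00619 to 0.0257).

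The other Tfrc probe set, 1388750_at, read 944.9, 1706.8 and 734.5 on the cirrhotic arrays, against 489.3, 622.4 and 441.4 on the control arrays. The groups were again apart, and cirrhotic array 2 was well above the other two. The difference was 1.02 (SE 0.30, adjusted p = 0.0384 in limma's moderated test). This call ended without cirrhotic array 1 (adjusted p = 0.0845) and without control array 1, 2 or 3 (adjusted p = 0.101, 0.0586 and 0.128), and without cirrhotic array 2 the difference was 0.68 (adjusted p = 0.0431). Without cirrhotic array 3 the 2 Tfrc differences were 1.17 on 1371113_a_at and 1.28 on 1388750_at.

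The bases before the annotated start of Tfrc are shown because both of its probe sets moved together and because hypoxia-inducible factors, which act through a short core motif, are known to act on the human TFRC promoter. In the RefSeq promoter table for GRCr8, the 250 bases before the start lie at chr11:81690319-81690568 on the minus strand, with matches to the cores ACGTG and GCGTG, on either strand, in capitals.
Tfrc: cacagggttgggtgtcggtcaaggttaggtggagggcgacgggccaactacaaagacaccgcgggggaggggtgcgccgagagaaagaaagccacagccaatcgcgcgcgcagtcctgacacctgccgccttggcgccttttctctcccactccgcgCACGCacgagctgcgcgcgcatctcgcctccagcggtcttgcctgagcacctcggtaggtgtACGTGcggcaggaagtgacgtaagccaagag
The ACGTG match begins 31 bases before the start, and the match to the other core, on the opposite strand, begins 93 bases before it. Of 33469 promoter windows of 300 bases in the table, 19.3% hold ACGTG and 29.7% hold GCGTG, so neither letter string is rare.

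Cp, the copper-containing ferroxidase that hepatocytes secrete into plasma, rose on all 3 of its probe sets, by 1.97 to 3.11 on the log2(signal + 16) scale. On 1368418_a_at the signals were 2288.9, 1868 and 2577.7 on the cirrhotic arrays, against 653.8, 668.5 and 393.2 on the control arrays (difference 1.97, SE 0.23, adjusted p = 0.00117 in limma's moderated test). On 1368419_at they were 1562.5, 1305.3 and 1183.5 on the cirrhotic arrays, against 177.8, 154.9 and 102.4 on the control arrays (difference 3.11, SE 0.21, adjusted p = 0.000386 in limma's moderated test).
The groups were far apart on both, and 1368419_at ranked 11 by p among the 9519 probe sets tested.

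On 1368420_at the Cp signals were 1655.8, 1028.6 and 2044.2 on the cirrhotic arrays, against 436.8, 362 and 192 on the control arrays (difference 2.22, SE 0.34, adjusted p = 0.00346 in limma's moderated test). Each of the 3 rises passed the test without any 1 array, with adjusted p-values up to 0.0206. The probe sets did not give the cirrhotic arrays the same order: array 3 was the highest on 1368418_a_at and 1368420_at and the lowest on 1368419_at. The ratio of the group mean signals was 3.93 on 1368418_a_at, 9.31 on 1368419_at and 4.77 on 1368420_at.

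Lcn2, which encodes lipocalin 2, a protein of neutrophils and inflamed epithelium that binds bacterial iron carriers, had the largest difference among the 10 probe sets. Its signals were 1677.4, 1613.2 and 506.7 on the cirrhotic arrays, against 113.3, 118.5 and 52.7 on the control arrays. Cirrhotic array 3 stood well below the other two cirrhotic arrays and still above every control array. The difference was 3.41 on the log2(signal + 16) scale (SE 0.47, adjusted p = 0.00228 in limma's moderated test). It lay between 3.10 and 3.97 with 1 array left out, highest without cirrhotic array 3, and passed each time.

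Promoter stretches of Lcn2 and Cp, both known as acute phase genes, are shown with the letters that NF-kB and C/EBP factors, which act on acute phase genes, are known to bind. The Lcn2 stretch, at chr3:36081852-36082030 on the minus strand of GRCr8, is the part of its RefSeq promoter window outside the annotated gene, and the Cp stretch is 30 bases at chr2:104368587-104368616 on the plus strand. Capitals mark matches, on either strand, to the NF-kB letters (GGGA, any 4 bases, CC) and the C/EBP letters TTGCNNAA.
Lcn2: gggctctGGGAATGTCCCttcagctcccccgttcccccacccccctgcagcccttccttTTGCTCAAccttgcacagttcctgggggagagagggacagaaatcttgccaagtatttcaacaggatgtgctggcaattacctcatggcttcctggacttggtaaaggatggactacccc
Cp: attatttactcTTGTGCAAcattaaattgt
In Lcn2 an NF-kB match begins 243 bases before the start, overlapping another on the opposite strand, and a TTGCNNAA match begins 191 bases before it. The Cp match to TTGCNNAA begins 72 bases before the start. Of the 33469 promoter windows 19.3% hold the NF-kB letters and 10.6% hold TTGCNNAA. Among the 6 genes with both a probe set and a promoter window, which do not include Hmox1, 3 had each of these motifs: Lcn2, Hbb and Ireb2 the first, and Lcn2, Cp and Hbb the second. No window of the 6 held the antioxidant response letters TGACNNNGC, the STAT letters TTCNNNGAA or the GATA letters AGATAA, which 12.1%, 8.87% and 11.6% of all windows hold.

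Hmox1, the inducible enzyme that opens the haem ring and releases its iron, was the only one of the 10 probe sets to fall. Its signals were 1092, 871.2 and 524.6 on the cirrhotic arrays, against 1264.1, 2050.6 and 1786.3 on the control arrays. The groups did not overlap, although cirrhotic array 1 was close to control array 1. The difference was -1.06 on the log2(signal + 16) scale (SE 0.28, adjusted p = 0.0304 in limma's moderated test). Leaving out control array 2 or control array 3 ended the call (adjusted p = 0.0971 and 0.102), and without cirrhotic array 3, the lowest of the 6, the difference was -0.76 (adjusted p = 0.04).

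Aco1 and Ireb2, the iron regulatory protein genes, did not differ detectably between the groups. Aco1 read 446.2, 327.7 and 460.8 on the cirrhotic arrays, against 416.9, 388.9 and 435.6 on the control arrays. Its difference was -0.02 with a 95% interval of -0.39 to 0.35 (adjusted p = 0.938 in limma's moderated test). Ireb2 read 182.9, 135.5 and 253.2 on the cirrhotic arrays, against 104.1, 190 and 177.5 on the control arrays, with a difference of 0.25 and a 95% interval of -0.39 to 0.90 (adjusted p = 0.541 in limma's moderated test). For both genes the groups overlapped, without cirrhotic array 3 the differences were -0.11 for Aco1 and 0.043 for Ireb2, and the interval of Ireb2 is wide enough to hold a rise as large as that of some genes that passed. The activity of both proteins is set by iron after transcription, which an RNA array does not measure.

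Hbb, a beta globin gene of red cells and their precursors, was several-fold higher in cirrhotic cells and varied widely between arrays. Its signals were 6780.3, 6502 and 1623 on the cirrhotic arrays, against 627.9, 1276.8 and 540.1 on the control arrays. The lowest cirrhotic signal, on array 3, was close to the highest control signal, on array 2. The difference was 2.43 on the log2(signal + 16) scale (SE 0.56, adjusted p = 0.0168 in limma's moderated test), and 3.10 without cirrhotic array 3. Leaving out cirrhotic array 1, control array 1 or control array 3 ended the call (adjusted p = 0.0684, 0.056 and 0.0694). The suffix of this probe set, 1367553_x_at, marks probes that can also bind other transcripts, so related globins may add to its signal.

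**Figure D2:**
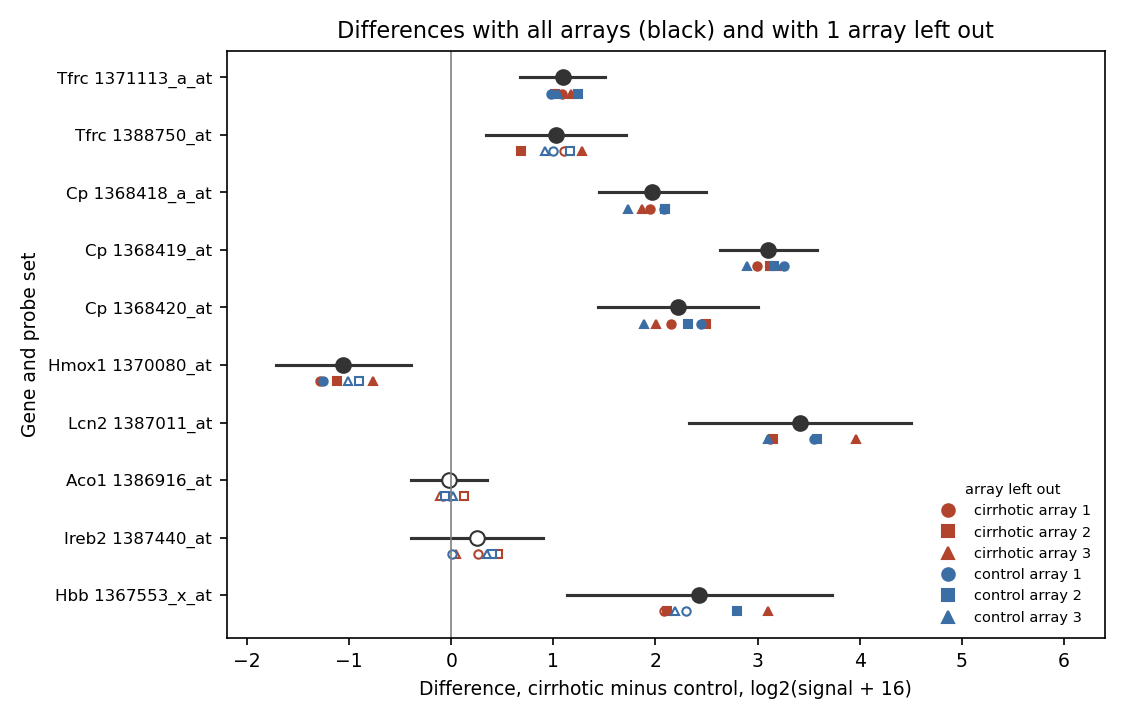
Difference between cirrhotic and control on the log2(signal + 16) scale for each probe set, with its 95% interval (black; filled where the adjusted p was under 0.05), and below it the difference with 1 array left out (colour and shape give that array). Cp, Lcn2 and 1 Tfrc probe set passed with every array left out in turn, while open symbols show where calls of the other Tfrc probe set, Hmox1 and Hbb ended.

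Other genes of iron and haem metabolism moved in both directions. In 6 lists of iron transport, iron sensing, iron-sulphur cluster, haem synthesis, haem scavenging and Hmox1 regulation, 52 genes besides the 10 were tested on their brightest probe set, and 6 rose and 10 fell. These were 30.8% of the 52, against 25.4% of all probe sets tested, with a median difference of 0.11 on the log2(signal + 16) scale.

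Of 11 tested iron transport genes, 1 rose and 1 fell, with a median of 0.12. Slc39a8, a metal transporter that can carry iron and zinc, fell by 2.50 (SE 0.15, adjusted p = 0.000355 in limma's moderated test), with signals of 294.6, 404.1 and 325.9 in cirrhotic against 1929.1, 1869.3 and 2163.8 in control cells. Its relative Slc39a14, which takes up iron not bound to transferrin, rose by 0.83 (SE 0.20), with no overlap between the groups. The 2 genes of this transporter pair thus moved in opposite directions on the same arrays. The metal reductase gene Steap2 (difference 0.84, adjusted p = 0.0521) and Ncoa4, the receptor that delivers ferritin for breakdown (difference -0.42, adjusted p = 0.0661), did not pass limma's moderated test. Without cirrhotic array 3, 2 genes of this list rose and 2 fell.

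The list of hepcidin and iron sensing genes had 5 of 10 genes lower and 1 higher. Endothelial markers fell on the same arrays, 9 of 9 sinusoidal ones with a median of -1.16 and 12 of 13 pan-endothelial ones with a median of -1.03, and Bmp2 is itself on the sinusoidal list. Their part in these falls was not tested. Bmp6 and Bmp2, the endothelial ligands that raise hepcidin in hepatocytes, fell by 1.59 (SE 0.13) and 1.36 (SE 0.11), and Id1, a gene that BMP signals induce, fell by 1.53 (SE 0.26). Epas1, a hypoxia-inducible factor subunit, fell by 0.98 (SE 0.14). Hamp, the hepcidin gene of hepatocytes and also on the hepatocyte list, moved the other way and rose by 1.22 (SE 0.24). Its signals were 1907.6, 2274.6 and 3744.8 on the cirrhotic arrays, against 1075.8, 962.1 and 1212.7 on the control arrays. The highest was on cirrhotic array 3, the array with the most hepatocyte marker signal. The part of hepatocyte RNA in the rise of Hamp was not tested.

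In the iron-sulphur cluster list 2 of 11 genes rose and 1 fell. The mitochondrial chaperone Hspa9 and the ferredoxin Fdx1 rose by 0.69 (SE 0.16) and 0.72 (SE 0.18), and the assembly factor Isca1 fell by 0.79 (SE 0.14). The fourth gene by p, Nubp2, had a difference of 0.38 (SE 0.13) and did not pass. Of 4 tested haem synthesis genes, Alas1, the first and rate-limiting enzyme outside red cells, fell by 0.90 (SE 0.23, adjusted p = 0.0234 in limma's moderated test). Alad, Fech and Urod had differences of -0.11, 0.11 and 0.05 and did not pass.

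Genes that act around Hmox1 did not share 1 direction. Blvra, the reductase that turns the biliverdin made by haem oxygenases into bilirubin, fell by 0.57 (SE 0.13), and the constitutive haem oxygenase gene Hmox2 had a difference of -0.03 (adjusted p = 0.891 in limma's moderated test). Hpx, the plasma protein hemopexin that binds free haem, rose by 1.30 (SE 0.40), as did its receptor gene Lrp1, by 1.06 (SE 0.16). The groups overlapped for Hpx, and Hp, which encodes the haemoglobin-binding haptoglobin, did not pass (difference 0.70, adjusted p = 0.127). In this list of 6 tested genes 2 rose and 1 fell, and without cirrhotic array 3 1 rose and 1 fell. Hpx had its highest signal, 4280.5, on that array.

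Of 10 tested regulators of Hmox1 and targets of NRF2, the stress-activated factor that induces it, only Nfe2l2, the NRF2 gene itself, passed, with a fall of 0.66 (SE 0.14). The target genes Gsr and Txnrd1 had differences of 0.53 and 0.30, and the thioredoxin gene Txn1 of -0.26, and none of the 3 passed. The median of the list was 0.12.

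**Figure D3:**
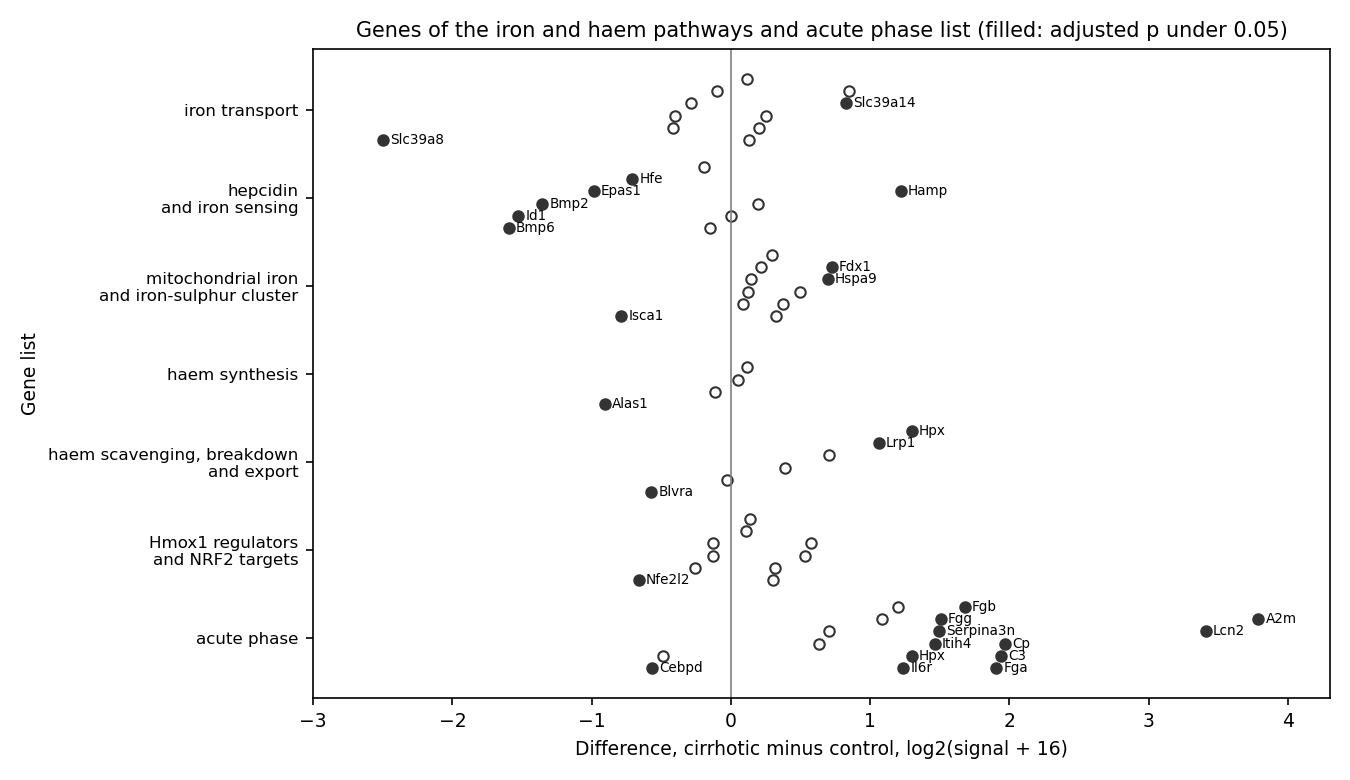
Difference between cirrhotic and control on the log2(signal + 16) scale for the tested genes of 7 lists, 1 point per gene on its brightest probe set, filled and named where the adjusted p was under 0.05. Vertical shifts within a list only separate points; the acute phase list lies mostly to the right, and Slc39a8 is the leftmost point.

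Cp and Lcn2 are on the list of acute phase genes, which liver cells switch on in inflammation. Of its 17 tested genes 11 rose and 1 fell, and apart from Cp and Lcn2 9 of 15 rose and 1 fell, with a median of 1.30. A2m rose by 3.79 (SE 0.40) and Serpina3n by 1.49 (SE 0.24). Cebpd, a C/EBP factor of the acute phase, was the gene that fell, by 0.56 (SE 0.17). Without cirrhotic array 3, 8 of the 17 rose and 1 fell. Among the cirrhotic arrays 13 of the 17 were highest on array 3, where Lcn2 was lowest: relative to the mean of arrays 1 and 2, array 3 differed by a median of 0.65 over the list and by -1.67 for Lcn2 on the log2(signal + 16) scale.

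Markers of other liver and blood cells were read on the same arrays as the iron genes. Their counts stand against 25.4% of all probe sets tested being called, 12.3% higher and 13.2% lower. Hepatocyte markers, 24 genes, summed to signals from 58062 to 120414 on the cirrhotic arrays and from 56476 to 76782 on the control arrays. Of the 24, 5 rose and 1 fell (25%, near the share over all probe sets), against 4 and 3 without cirrhotic array 3. All 24 had their highest cirrhotic signal on array 3. On cirrhotic arrays 1 and 2 the sum lay within the control range, but single genes of the list did not. On those 2 arrays Apoa1 (3583.1 and 1804.9) and Ahsg (6816.1 and 5085.6) were above every control signal. Cyp2c11 (527.8 and 436.3) was below every control signal there. Without array 3 the Cp differences were 1.86, 3.20 and 2.01 on its 3 probe sets. The part of hepatocyte RNA in the rise of Cp was not tested.

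Neutrophil markers, 8 genes that were all too dim on average to be tested, summed to 2317.6, 1588.6 and 247.3 on cirrhotic arrays 1 to 3, against 315.9, 332.4 and 242.3 on the control arrays. S100a9, named here after its values were seen, read 1022.3, 639 and 45 on the cirrhotic arrays, against 49.5, 10.7 and 29 on the control arrays. Mmp9 and Cxcr2, also named after their values were seen, went the other way. Mmp9 was lower on every cirrhotic array (74.5, 76.2 and 71.8) than on any control array (80.5, 108 and 83.1). Cxcr2 had a mean of 39.3 in cirrhotic and 47.3 in control cells, with overlapping groups. On cirrhotic array 3 the neutrophil sum was within the control range and the Lcn2 signal, 506.7, was above every control signal. Cholangiocyte markers, 11 genes, summed to between 5374.9 and 13941.9 on the cirrhotic arrays and between 853.1 and 1668.6 on the control arrays. In that list 7 of 9 tested genes rose and none fell, among them Cldn3, Krt18, Krt8 and Cdh1, and all 11 were lowest among cirrhotic arrays on array 3. The keratin gene Krt19, named here after its values were seen, did not pass (difference 2.07, adjusted p = 0.0826 in limma's moderated test). It read 705.3, 662.7 and 70 on the cirrhotic arrays, against 80.4, 91.4 and 39 on the control arrays. Krt7, too dim to be tested, read 71.8, 59.7 and 23.3 on the cirrhotic arrays, against 56.7, 41.6 and 47 on the control arrays. On cirrhotic array 3 Krt8 and Krt18 read 1768.5 and 1995.4 and gave most of the cholangiocyte sum there. The part of neutrophil or cholangiocyte RNA in the rise of Lcn2 was not tested.

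**Figure D4:**
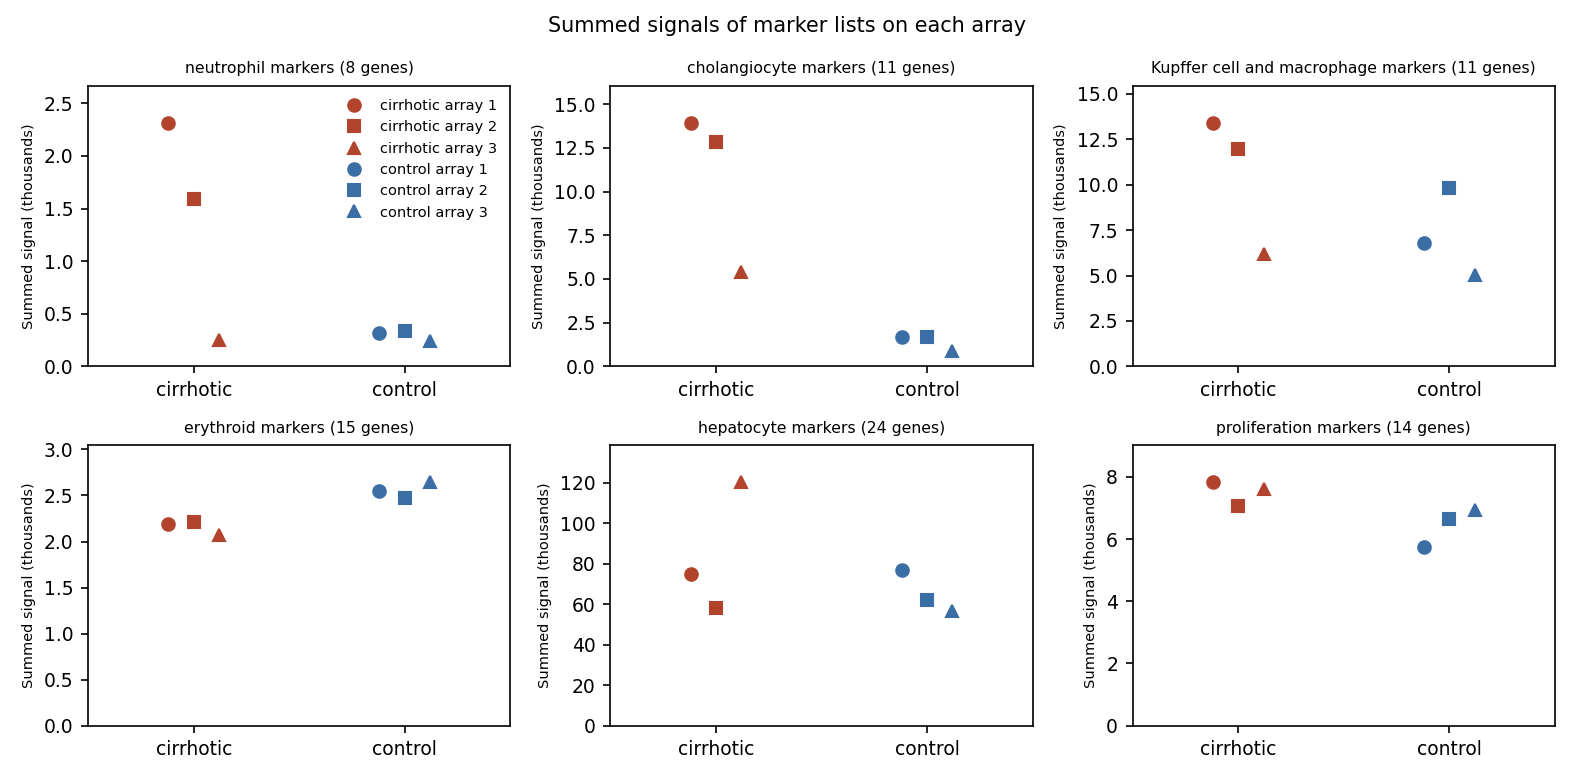
Summed signal, divided by 1000, of 6 marker lists on each of the 3 cirrhotic (red, left) and 3 control arrays (blue, right). Cirrhotic array 3 (red triangle) was the lowest cirrhotic array for the neutrophil, cholangiocyte and macrophage sums and the highest for the hepatocyte sum.

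The 3 tested genes of the erythroid marker list did not share 1 direction beside Hbb, and which cells gave their signals was not tested. Of 15 erythroid markers with a probe set, 12 were too dim to be tested, 4 of them at or under the bacterial control probe sets on all 6 arrays, and of the other 3 the alpha globin gene Hba-a3 rose by 1.46 (SE 0.26) while the glycophorin gene Gypc fell by 1.12 (SE 0.17) and Epor did not pass. The summed signal was 2071.4 to 2209 on the cirrhotic arrays and 2476.7 to 2648.1 on the control arrays, with Gypc giving most of the control sum. Alas2, the haem synthesis enzyme of red cell precursors, named here after its values were seen, read 316.9, 354.9 and 100.7 on the cirrhotic arrays, against 51.3, 70.6 and 84.7 on the control arrays. Hba-a3 and Alas2 were both lowest among cirrhotic arrays on array 3, as was Hbb. Slc4a1 and Gata1, also too dim to be tested and named after their values were seen, went the other way. Their means were 110.5 and 56.5 in cirrhotic cells, against 129.5 and 76.9 in control cells, with overlapping groups. Ahsp, an erythroid globin chaperone, read between 5.8 and 13.9 on all arrays. The 3 probe sets listing both Hba-a2 and Hba-a1 are outside this list and its sum, because they name several symbols. They rose by 2.38, 2.43 and 1.97.

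Beside Hmox1, which Kupffer cells express, 2 of 11 macrophage markers rose and 1 fell (27.3%, against 25.4% of all probe sets tested). The sum of these markers was 6169.9 to 13414.5 on the cirrhotic arrays and 5009.6 to 9819.5 on the control arrays. The rises were those of Lyz2 (1.32, SE 0.28) and Laptm5 (1.40, SE 0.28), and the Kupffer cell receptor gene Clec4f fell by 3.22 (SE 0.52). Cd14, the coreceptor for bacterial lipopolysaccharide, had a difference of 0.64 (SE 0.28) and did not pass. The complement genes C1qa, C1qb and C1qc, named here after their values were seen, had differences of -1.01, -0.85 and -0.90. Those of Tyrobp, Cd68, Aif1 and Csf1r were 0.59, 0.40, 0.18 and 0.16, and none of these genes passed. Both endothelial lists also fell on these arrays, 9 of 9 sinusoidal genes with a median of -1.16 and 12 of 13 pan-endothelial genes with a median of -1.03. The part of macrophage or endothelial RNA in the fall of Hmox1 was not tested. Nor was the part of endothelial RNA in the falls of Slc39a8, Alas1, Blvra and Nfe2l2.

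Beside Tfrc, which dividing cells and activated lymphocytes express strongly, 7 of 12 tested proliferation markers and 6 of 11 tested T and NK cell markers rose and none fell. The proliferation genes Top2a and Cdk1 rose by 1.44 (SE 0.22) and 1.49 (SE 0.27), Cd3e by 2.11 (SE 0.24) and Cd3g by 2.04 (SE 0.27). The cytotoxic and NK cell genes of that list, named here after their values were seen, did not pass: Prf1 had a difference of -0.91, Klrd1 of -0.65, Cd8a of -0.61, Nkg7 of -0.18 and Gzmb of -0.04. The proliferation sum was 7066.3 to 7843.4 on the cirrhotic arrays and 5736 to 6923.8 on the control arrays. Pcna, the brightest gene in that sum and named here after its values were seen, had a difference of -0.33 and did not pass. The T and NK cell sum was 4202.4 to 7912.4 on the cirrhotic arrays and 4042.9 to 5473.6 on the control arrays. Without cirrhotic array 3, 5 proliferation genes rose and none fell, and 6 T and NK cell genes rose and 1 fell. The part of these cells in the rise of Tfrc was not tested. Endothelial markers, those of the cell type on the labels, moved the other way: all 9 tested sinusoidal markers and 12 of 13 pan-endothelial markers fell. The pan-endothelial list summed to 21423.7 to 22670.5 on the cirrhotic arrays and 41879.2 to 43118.8 on the control arrays. Of 11 tested stellate cell markers 8 rose.

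For each gene that passed, the 3 genes whose signals followed it most closely over the 6 arrays are given with Pearson's r on the log2(signal + 16) scale, which with 3 arrays per group mostly follows the difference between the groups. For Cp on 1368419_at these were Tmtc1 and Lsm5 (both r = 0.999) and Ceacam1 (r = 0.998). Lcn2 was followed by Akap13 (r = 0.999), Myof and Snrpd2 (both r = 0.996). Tfrc on 1371113_a_at was followed by Pus1 and the T cell inhibitory receptor gene Ctla4 (both r = 0.997), and by the carbonic anhydrase gene Car2 (r = 0.994). Hbb was followed by Axl (r = 0.996), Atp1b1 (r = 0.993) and the leukocyte gene Laptm5 (r = 0.992). Hmox1 was followed by Tmem87a (r = 0.996), Enah (r = 0.993) and Tsc22d1 (r = 0.987), none of which passed the test. Of 8177 probe sets compared, 685 had r over 0.9 with Lcn2 and 183 with Hmox1. With r over 0.98 there were 82 for Lcn2 and 7 for Hmox1.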

How the data were processed

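RNA of 3 cirrhotic and 3 control samples of rat liver endothelial cells was read on Affymetrix rat 230A arrays, 1 column per array. Each deposited value is a linear intensity, the signal the authors gave a probe set on an array. Neither summary software nor detection calls are stated in the labels. Trimmed of 2% at each end, array means were 399.2 to 399.6, near 400, so the authors' scaling was kept, and 0 further value columns were left aside. Signals are relative to the array total. Groups and numbers follow the sample titles; 1 control title without a number was called control 1.

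Values were used as log2(signal + 16), 16 being the rounded 10th percentile. The 57 control probe sets and the 40% dimmest of 15866 by mean over all arrays (signal under about 127) were left out, leaving 9519. The comparison used limma 3.58.1 under R 4.3.3 (lmFit, eBayes with a variance trend; two-sided, Benjamini-Hochberg, threshold 0.05), tested on simulated data. No detection call was available, so signal over background limits dim genes. Symbols came from the platform annotation; 12783 probe sets had 1 symbol, 312 several and 2771 none, and of the 12783, 12748 matched the GRCr8 gene table with 0 symbols changed.

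The genes and lists were chosen with earlier results of these data known. Each list used the brightest probe set per gene; up to 4 genes per described list with the smallest p were named, together with genes moving against their list, and exceptions are marked. Marker lists were used as sums and counts. For each gene passing, the 3 best correlated genes were named. Motifs were searched on both strands of RefSeq promoter windows (250 bases before to 50 after the start). Alternatives covered scaling, pseudocount, filter, variance model, array weights, array number and each array left out.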

Additional observations from a re-analysis of the deposited data

How the results depend on the processing

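Of 168 refits of single iron and haem probe sets, 150 kept the direction and the side of the threshold, 15 kept the direction and no longer passed, and 3 changed sign. The 3 were of Aco1, which never passed: 0.045 with array weights, 0.13 without cirrhotic array 2 and 0.02 without control array 3 (range with 1 array left out -0.11 to 0.13), on the log2(signal + 16) scale. The other 14 refits of Aco1 and the 16 of Ireb2, which also never passed, are among the 150. Of the 15 that no longer passed, 6 were of Tfrc on 1388750_at, 2 of Tfrc on 1371113_a_at, 3 of Hmox1 and 4 of Hbb. Of the 10 probe sets, 8 passed with all arrays, and between 5 and 8 with 1 array left out, with 5 without control array 3. Over all probe sets 2421 passed, and between 1341 (without control array 3) and 2472 (without cirrhotic array 3) with 1 array left out, 1366 without cirrhotic array 1. With array weights 3772 passed, and Hmox1 (-0.68, adjusted p = 0.0535) no longer did. Without a filter Tfrc on 1388750_at had an adjusted p of 0.0576. Median centring gave 925 higher and 1480 lower calls, against 1167 and 1254 as deposited, and 8 of the 10 still passed. With 1 probe set per gene chosen by smallest p, the list of Hmox1 regulators had 2 calls in place of 1, and without cirrhotic array 3 also 2; the iron transport list then had 4 in place of 2. Array numbers 2 and 3 are in the titles of both groups. With the number as a block over those 4 arrays, 908 probe sets passed, 7 of the 10 among them, and Tfrc on 1371113_a_at did not (0.98, adjusted p = 0.0612); without the block 596 and 5 passed on the same arrays, an alternative added once the data had been seen. The titles do not say that the numbers pair animals, so they were not taken to do so. Deviations of same-numbered arrays from their group means correlated at -0.01 and -0.16, which cannot exclude pairing. The 3 arrays per group and the missing detection calls limit what can be said of dim genes.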

Other observations

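Probe sets annotated to several symbols name no single gene, and their values are given only as those of the probe set. The probe set listing Srprb and Tf together read 8555.3, 7303.5 and 10751 on the cirrhotic arrays, against 6859.5, 6039.7 and 4741.9 on the control arrays (difference 0.59 on the log2(signal + 16) scale, SE 0.17, adjusted p = 0.0425 in limma's moderated test). The groups did not overlap. A probe set listing Fth1 with a pseudogene read 7900.5, 6484.4 and 8218.4 on the cirrhotic arrays, against 6918.6, 7570.1 and 6939.7 on the control arrays, with overlapping groups (difference 0.07, adjusted p = 0.665 in limma's moderated test). The probe set listing Ftl1 with 4 related genes read 6057, 5224.2 and 6856.8 on the cirrhotic arrays, against 5211.3, 5122.3 and 4987.2 on the control arrays (difference 0.23, adjusted p = 0.159 in limma's moderated test). Its groups did not overlap, but cirrhotic array 2 was close to control array 1.

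The 3 probe sets listing both Hba-a2 and Hba-a1 differed by 2.38, 2.43 and 1.97 between cirrhotic and control, and each read lowest among cirrhotic arrays on array 3 (3503, 3753.9 and 1737.1), above every control signal. On 1 of 2 probe sets listing Hbbl1 and Hbb-bs the signals were 1256, 1459.7 and 186 on the cirrhotic arrays, against 115.8, 205 and 91.5 on the control arrays, so array 3 lay among the controls there. The other, too dim to be tested, read 64.6, 40.9 and 30.1 on the cirrhotic arrays, against 12.2, 179.5 and 7.2 on the control arrays, with its highest signal on control array 2. The embryonic and fetal globin genes Hbe1, Hbe2 and Hbg1 were too dim to be tested.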
